A study of Mus musculus with 12 samples.

Results

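The enzymes of phase II conjugation in mouse liver were examined as 67 protein-coding genes among the 54232 genes of the count table. They were chosen by gene symbol as all genes named *Ugt1a*, *Ugt2a*, *Ugt2b*, *Ugt3a*, *Sult*, *Gst* of the alpha, kappa, mu, omega, pi, theta and zeta families, and *Mgst1* to *Mgst3*. Of these, 48 were counted with over 2 reads in 6 or more livers and were tested together with the 17509 genes that passed this filter. The libraries were made from mRNA of total liver tissue of 12 male mice on a standard chow diet, 6 WT and 6 *Marchf6* LKO (LKO), with 1 library per mouse. All mice were on the C57Bl/6J background, were 10 weeks old and had been fasted for 4 h, and the 2 groups were littermates. Both groups carried floxed *Marchf6* alleles (*Marchf6* fl/fl), and only the LKO mice carried AlbuminCre, in which the albumin promoter drives Cre recombinase in hepatocytes. Whether other liver cells kept the gene was not tested. The labels place the deletion in exon 2, whereas the study's methods name the third exon as well as exon 2. Livers are named here by group and replicate number (WT1 to WT6, LKO1 to LKO6), and levels are normalized CPM, the share of a library's reads after scaling between libraries.

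Phase II enzymes attach a polar group to a drug, hormone or metabolite, after which the product can be exported into bile or blood. UDP-glucuronosyltransferases (UGT) of the endoplasmic reticulum transfer a sugar, cytosolic sulfotransferases (SULT) transfer sulfate from the donor PAPS, and glutathione S-transferases (GST) join glutathione to electrophiles, in the cytosol, in mitochondria and peroxisomes (GST kappa) or in membranes (MGST). Hepatocytes are a main site of all of these reactions, and several of the genes lie side by side in clusters of close copies.

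The targeted gene, *Marchf6* (ENSMUSG00000039100, listed as *March6* in the annotation), had 226 to 247 normalized CPM in the WT livers with a median of 244, and 204 to 249 with a median of 227 in the LKO livers. The groups overlapped, with 3 LKO livers (LKO1, LKO3 and LKO4) below every WT liver and LKO5 above every WT liver, and the log2 fold change was -0.09 ± 0.06 (SE, adjusted p = 0.585 in edgeR). A count over the whole gene does not check the removal of 1 exon, since it also holds the reads from the rest of the transcript. The libraries held 14860414 to 22111926 counted reads. In the numbering of the labels every WT library comes before every LKO library, and effects of genotype and of library order cannot be told apart.

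At an adjusted p under 0.05 in edgeR, 3 of the 48 tested enzymes differed between the groups, beside 75 of all 17509 genes (0.428%). *Gstm1* was the 1 member that rose in LKO livers, beside 0.274% of all genes tested. *Sult5a1* and *Ugt1a6b* fell, beside 0.154% of all genes tested. The livers of the groups did not overlap in 2 of the 48, *Gstm1* and *Ugt1a6b*, beside 228 of all genes (1.30%). At an unadjusted p under 0.05 in edgeR there were 16 of the 48 members, beside 11.7% of all genes tested. Of these members 8 were higher and 8 lower, beside 6.33% and 5.36% of all genes. The directions differed by class. Among 19 cytosolic GST genes 6 were higher and 0 lower. Among 18 UGT genes 2 were higher and 6 lower, and among 8 SULT genes 0 were higher and 2 lower. The same 3 members passed in limma voom, which called 0.485% of all genes (0.314% higher, 0.171% lower). DESeq2 called 5 members, adding *Gstm4* and *Ugt3a2*, and 350 of 15122 genes (2.31%; 1.18% higher, 1.13% lower). The median log2 fold change of the 48 members was 0.04, beside 0.00016 over all genes tested, with 27 members above 0 and 21 below. By class the median was 0.13 (UGT1A), -0.14 (UGT2A and UGT2B), -0.35 (UGT3A) and -0.10 (SULT). It was 0.08 for cytosolic GST, 0.07 for GST kappa and -0.03 for MGST. The count changed with single livers. Without WT3, 4 members were higher and 3 lower, and without LKO6 2 were higher, while the number of all genes called was 132 without WT3 (83 higher, 49 lower) and 69 without LKO6. The number of lower members went to 1 without WT1, LKO3 or LKO5, and to 0 without WT4, WT5, LKO2 or LKO6, where 38 (without WT5) to 69 of all genes were called. With WT3 and LKO1 left out together, a choice made after seeing the data, 4 were higher and 2 lower, and 121 of all genes were called (73 higher, 48 lower).

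**Figure D1:**
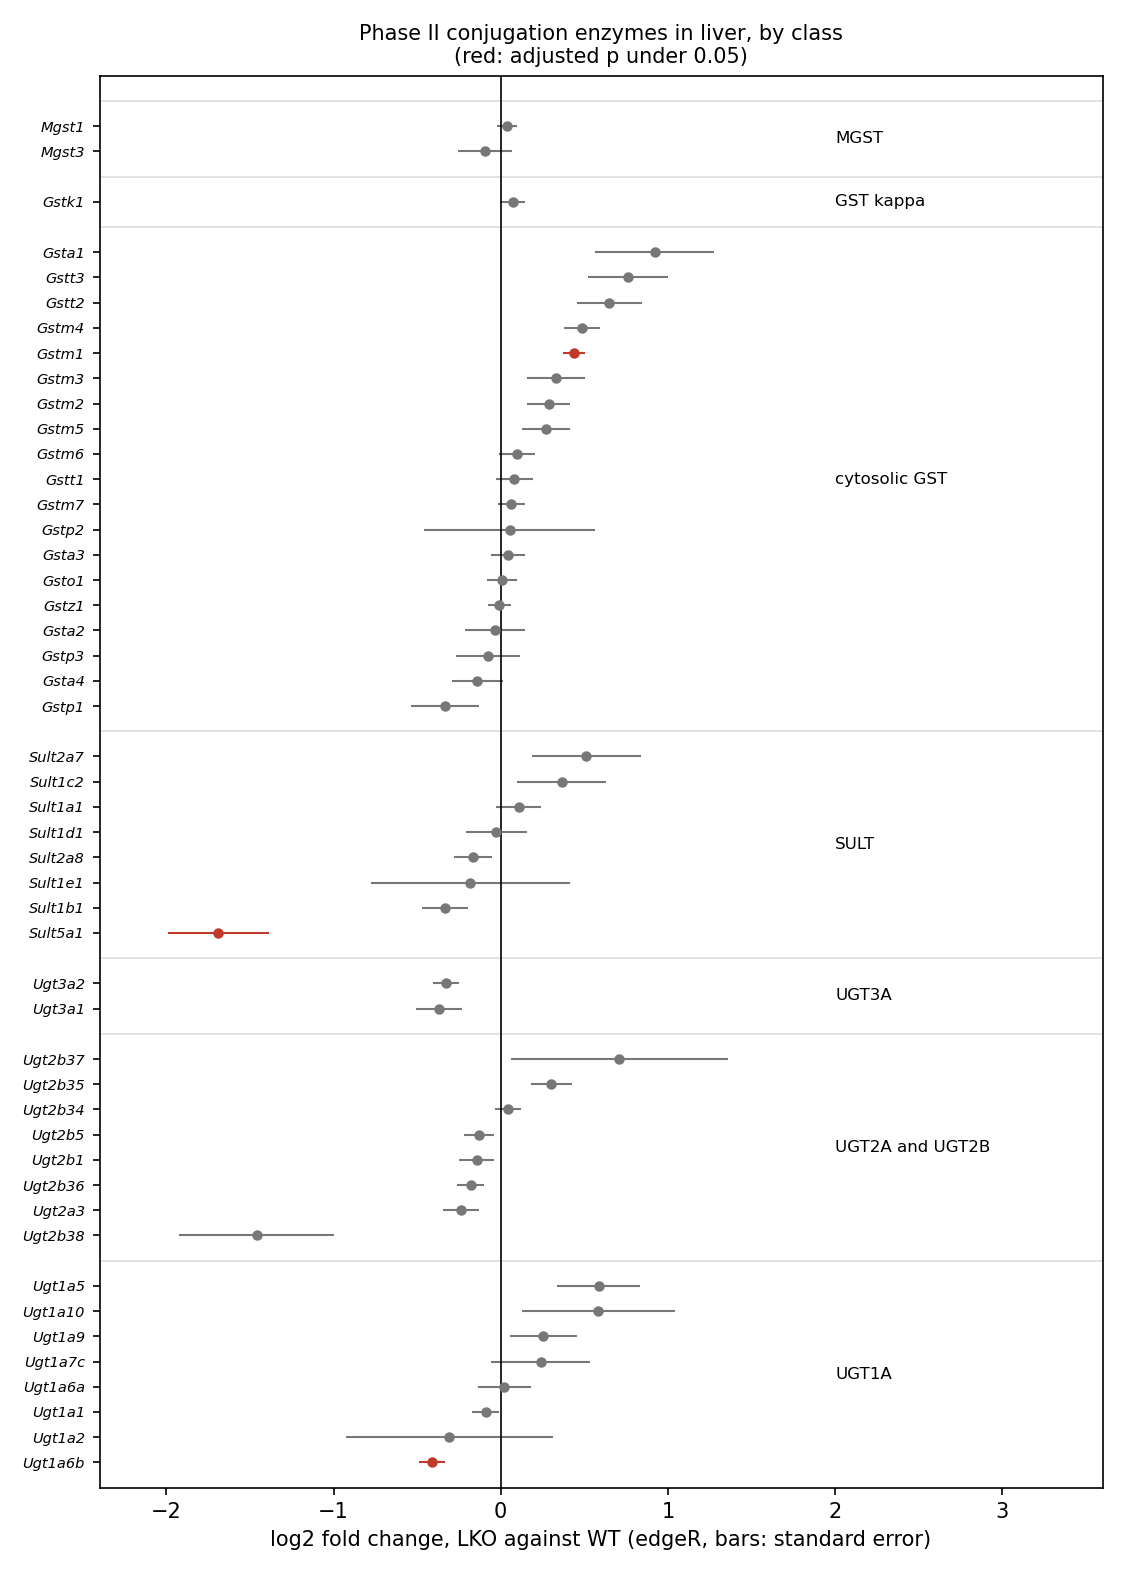
Log2 fold change of the 48 tested enzymes between 6 LKO and 6 WT livers, by class, with the standard error of the edgeR fit as bars and the 3 members with an adjusted p under 0.05 in red. All 7 GST mu genes lie to the right of 0 and both UGT3A genes to the left, while *Gsta3*, *Gstz1* and *Mgst1* lie near 0.

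The 48 enzymes together took 1.05% to 1.27% of all counted reads of a liver. Their summed level was 10361 to 11999 normalized CPM in WT livers and 10343 to 12739 in LKO livers, so the groups overlapped. *Mgst1* alone gave 28.0% of that sum. On the scale of normalized CPM per kb of exon, averaged over all livers, *Mgst1* was highest with 1601, followed by *Gstm1* with 575, *Ugt2b1* with 335, *Ugt2b5* with 294 and *Gsta3* with 277. The lowest level per kb was 0.0765, of *Ugt1a2*. Single livers stood at an end of their group for many members. WT3 had the highest value among WT livers for 26 of the 48 members and the lowest for 9. WT6 was lowest for 23 and highest for 1. LKO4 was highest among LKO livers for 23 and lowest for 2, and LKO1 was lowest for 23 and highest for 6. The median distance of a member from its group mean was 0.32 (log2) in WT3, 0.28 in WT6, 0.25 in LKO1 and 0.24 in LKO4, and between 0.10 and 0.15 in the other 8 livers. These values were not taken over all genes tested, so whether they are particular to these enzymes was not tested.

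The UGT1A enzymes glucuronidate bilirubin, phenols and many drugs, and are made from 1 locus on chromosome 1 in which each gene has its own first exon and all share the remaining exons. Of 9 genes, 8 were tested, and *Ugt1a8* had at most 1 read in any liver. The UGT1A sum was 162 to 244 normalized CPM in WT livers (median 184) and 177 to 234 in LKO livers (median 188). *Ugt1a1*, the bilirubin-conjugating enzyme and 41.3% of that sum, had 75.7 to 92.4 normalized CPM in WT livers and 67.3 to 88.4 in LKO livers, with a log2 fold change of -0.09 ± 0.08 (SE). Its groups overlapped, with LKO1 and LKO6 below every WT liver.

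*Ugt1a6b* (ENSMUSG00000090145, chr1:88103252-88219003, plus strand), of the UGT1A6 type that conjugates small planar phenols, had 30.6, 34.2 and 34.8 normalized CPM as the lowest, median and highest WT values, and 21.1, 24.6 and 29.7 in LKO livers. Every LKO liver lay below every WT liver, although LKO5 came within 1 CPM of WT6. It fell by 0.41 on the log2 scale (SE 0.0777, edgeR adjusted p = 0.0282). Leaving out 1 liver ended this call for WT1 (adjusted p = 0.0803), WT4 (0.0754), WT5 (0.0861), LKO2 (0.0710), LKO3 (0.0684) and LKO6 (0.0658), while the log2 fold change lay between -0.47 and -0.37 with any liver left out. It ended as well with WT3 and LKO1 left out together (0.0578), and over the 21 other alternatives the adjusted p ran from 0.00039 to 0.0861. In the annotation 20.2% of the 50-base stretches of its transcripts occur in no other gene, and it shares most with *Ugt1a6a*, which had a log2 fold change of 0.02 ± 0.16 (SE). The sources used here do not give how reads in shared exons were counted, so the counts of these copies are uncertain. This holds for all 8 tested UGT1A genes, in which 20.2% to 47.9% of the stretches occur in no other gene. Of the 2224 exon bases of *Ugt1a1*, 385 lie in no exon of another gene. The share of *Ugt1a1* in the UGT1A sum and the levels per kb of UGT1A genes, taken over the whole exon length, are therefore uncertain as well.

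*Ugt1a5* had 26.1, 32.9 and 78.3 normalized CPM (lowest, median, highest) in WT livers and 43.4, 61.8 and 76.0 in LKO livers. WT3 stood above every LKO liver, and the other 5 WT livers stood below all 6 LKO livers. The log2 fold change was 0.59 ± 0.25 (SE, edgeR adjusted p = 0.365), and without WT3 it was 0.90 with an adjusted p of 0.0253, the lowest over the alternatives, which ran up to 0.547. The remaining tested UGT1A genes (*Ugt1a2*, *Ugt1a6a*, *Ugt1a7c*, *Ugt1a9* and *Ugt1a10*) had log2 fold changes from -0.31 to 0.58 and unadjusted p of 0.223 or more. *Ugt1a2* and *Ugt1a10* had at most 17 reads in any liver.

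The UGT2B enzymes glucuronidate steroids, bile acids and drugs. Of the 10 UGT2A and UGT2B genes 8 were tested, while *Ugt2a1* and *Ugt2a2*, best known from the olfactory tissue, had 0 reads in every liver. Their summed level was 2482 to 3177 normalized CPM in WT livers and 2386 to 2981 in LKO livers, and none of the 8 passed the threshold in edgeR, limma voom or DESeq2, with 1 higher and 3 lower at an unadjusted p under 0.05. *Ugt2b1*, the most abundant, had 663, 968 and 1005 normalized CPM (lowest, median, highest) in WT livers and 723, 807 and 939 in LKO livers. WT3 was lowest of all 12 livers for *Ugt2b1*, and 4 of the WT livers stood above every LKO liver (log2 fold change -0.14 ± 0.10 SE, edgeR adjusted p = 0.633). *Ugt2b5* had a log2 fold change of -0.13 ± 0.09 (SE) and *Ugt2b36* one of -0.18 ± 0.08 (adjusted p = 0.410). *Ugt2b34* (0.04), *Ugt2b35* (0.30 ± 0.12 SE) and *Ugt2a3* (-0.24 ± 0.11 SE), the last at 149 normalized CPM in LKO1 and at 207 or more in every other liver, complete the tested genes together with *Ugt2b37* and *Ugt2b38*.

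*Ugt2b38* had 5.02, 40.6 and 45.4 normalized CPM (lowest, median, highest) in WT livers and 4.22, 10.8 and 23.0 in LKO livers. WT3 lay among the LKO livers, and the other 5 WT livers, at 26.9 or more, lay above all 6 LKO livers. The log2 fold change was -1.46 ± 0.46 (SE, edgeR adjusted p = 0.215), and without WT3 it was -1.69 with an adjusted p of 0.0434. With LKO1 left out as well the adjusted p was 0.0117, and over the 21 other alternatives it ran from 0.0434 to 0.376. Of its 50-base stretches 62.6% occur in no other gene and it shares most with *Ugt2b5*, of whose own stretches 58.3% occur in no other gene, so the counts of both are uncertain. *Ugt2b37* had a log2 fold change of 0.71 ± 0.65 (SE), with LKO1 at 22.5 normalized CPM and the other LKO livers at 1.31 to 4.02.

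UGT3A enzymes use other UDP-sugars than UDP-glucuronic acid. Both genes, neighbours on chromosome 15, had a negative log2 fold change, also under every alternative tried. *Ugt3a2* had 309, 366 and 398 normalized CPM (lowest, median, highest) in WT livers and 255, 292 and 327 in LKO livers. WT6 lay among the LKO livers and LKO4 above WT6, and the other 5 livers of each group did not overlap. The log2 fold change was -0.33 ± 0.08 (SE, edgeR adjusted p = 0.0816). It passed the threshold in 3 of 21 alternatives, among them DESeq2 (adjusted p = 0.00408) and the fit without WT6 (0.0480), and ran up to 0.180. *Ugt3a1* had 29.3 to 45.7 normalized CPM in WT livers and 23.4 to 37.9 in LKO livers, with a log2 fold change of -0.37 ± 0.14 (SE, adjusted p = 0.296).

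Of the 21 SULT genes 8 were tested. Those with too few reads were *Sult1c1*, *Sult2a1* to *Sult2a6*, *Sult2b1*, *Sult3a1*, *Sult3a2*, *Sult4a1*, *Sult6b1* and *Sult6b2*, none with more than 11 reads in any liver. *Sult2a8*, which acts on bile acids and gave 60.1% of the summed SULT level, had 776, 801 and 889 normalized CPM (lowest, median, highest) in WT livers and 486, 765 and 866 in LKO livers. LKO1 was lowest by far, and the log2 fold change was -0.16 ± 0.11 (SE, edgeR adjusted p = 0.613). Without LKO1 the log2 fold change of *Sult2a8* was -0.07. *Sult1a1*, a phenol sulfotransferase, had a log2 fold change of 0.11 ± 0.13 (SE) and *Sult1d1*, which acts on catecholamines, one of -0.03 ± 0.18. That of *Sult1a1* was 0.21 without WT3 and 0.03 without WT6. *Sult1a1* ran from 209 (WT6) to 387 (WT3) normalized CPM within the WT group and *Sult1d1* from 125 (WT2) to 252 (WT3), which covered all LKO livers but LKO1 for *Sult1d1*. *Sult1b1*, a sulfotransferase for thyroid hormone and phenols, had a log2 fold change of -0.33 ± 0.14 (SE, adjusted p = 0.361). *Sult1e1*, the estrogen sulfotransferase, had at most 19 reads, and *Sult1c2* (log2 fold change 0.37 ± 0.27 SE) and *Sult2a7* (0.51 ± 0.32 SE) had at most 72.

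*Sult5a1* (ENSMUSG00000000739, chr8:123140192-123158315, minus strand), a sulfotransferase of little known substrate range, fell most among all 48 members with all livers included. *Ugt2b38* fell more without LKO1 (log2 fold change -1.74 against -1.53) and without both WT3 and LKO1 (-1.97 against -1.60). *Sult5a1* had 11.5, 16.6 and 27.4 normalized CPM (lowest, median, highest) in WT livers and 2.47, 5.03 and 11.6 in LKO livers. LKO4 lay just above WT2, and the other 5 LKO livers lay below every WT liver, with WT4 and WT5 at the top. It fell by 1.69 on the log2 scale (SE 0.302, edgeR adjusted p = 0.0201), and over the alternatives the adjusted p ran from 8.5e-06 to 0.0644. The call ended without WT4 (adjusted p = 0.0546), WT5 (0.0644), LKO2 (0.0552), LKO5 (0.0538) or LKO6 (0.0519), with a log2 fold change between -2.004 and -1.53 whichever liver was left out. Of its 50-base stretches 98.9% occur in no other gene.

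Cytosolic GST genes formed the largest tested class, with 19 of 21 genes. *Gsto2* and *Gstt4* had at most 4 reads and were not tested. The summed level was 2975 to 3810 normalized CPM in WT livers (median 3430) and 3308 to 4316 in LKO livers (median 3680). In edgeR 1 of 19 passed the threshold. At an unadjusted p under 0.05, 6 were higher and 0 lower, beside 6.33% and 5.36% of all genes tested. Of the alpha genes, *Gsta3* was the most abundant with 926 to 1395 normalized CPM in WT livers and 1054 to 1491 in LKO livers (log2 fold change 0.04 ± 0.10 SE). *Gsta1* had the largest positive log2 fold change of all members, 0.92 ± 0.36 (SE, edgeR adjusted p = 0.320), but at 1 to 11 reads per liver. Only 9.50% of its 50-base stretches occur in no other gene, so its count is uncertain. *Gsta2* and *Gsta4* had log2 fold changes of -0.04 ± 0.18 and -0.14 ± 0.15 (SE).

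GST mu genes detoxify electrophiles such as epoxides and lie in a row on chromosome 3. All 7 were tested, and 1 of 7 passed the threshold. All 7 had a positive log2 fold change, beside 8762 of all 17509 genes tested. Their signs stayed positive under every alternative, each a refit of these same livers. Their summed level was 905, 986 and 1118 normalized CPM (lowest, median, highest) in WT livers and 1208, 1284 and 1471 in LKO livers. Every LKO liver was above every WT liver in this sum, of which *Gstm1* gave 73.8%. *Gstm1* was also the 1 gene of the 7 whose groups did not overlap. The median of the 7 log2 fold changes was 0.29.

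*Gstm1* (ENSMUSG00000058135, chr3:108012255-108017973, minus strand) had 668, 709 and 813 normalized CPM (lowest, median, highest) in WT livers and 911, 967 and 1071 in LKO livers. The groups did not overlap: WT3, the highest WT liver, stayed below LKO1, the lowest LKO liver. *Gstm1* rose by 0.44 on the log2 scale (SE 0.0660, edgeR adjusted p = 0.00725), and it passed the threshold in each of the 21 alternatives run for single genes, with adjusted p from 3.2e-09 to 0.0286. Of its 50-base stretches 81.1% occur in no other gene, and it shares most with the pseudogene *Gstm2-ps1*.

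*Gstm4*, the next gene of the cluster, had 40.2, 45.1 and 55.0 normalized CPM (lowest, median, highest) in WT livers and 48.6, 62.7 and 80.0 in LKO livers. LKO6 lay below WT3, and the other 5 LKO livers lay above every WT liver. The log2 fold change was 0.49 ± 0.11 (SE, edgeR adjusted p = 0.0676). It passed the threshold in 5 of 21 alternatives, among them no filter (adjusted p = 0.0322), DESeq2 (0.00498) and the fits without WT3 (0.0292) and without LKO6 (0.0229), and ran up to 0.159. The other GST mu genes had log2 fold changes of 0.33 ± 0.17 (*Gstm3*), 0.29 ± 0.13 (*Gstm2*), 0.27 ± 0.14 (*Gstm5*), 0.10 ± 0.11 (*Gstm6*) and 0.06 ± 0.08 (*Gstm7*, all SE), and none of these 5 passed.

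**Figure D2:**
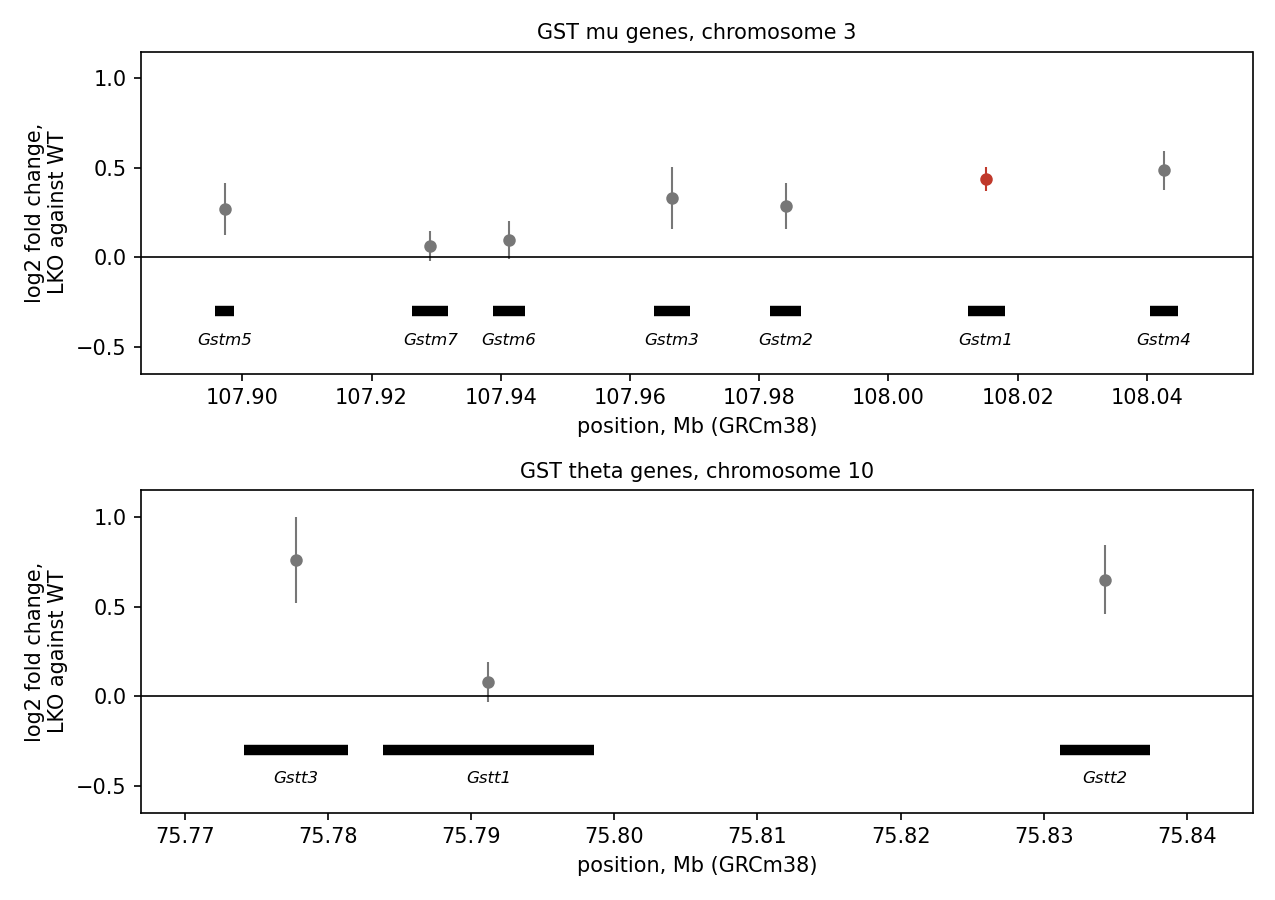
Log2 fold change (LKO against WT, bars: standard error) of the tested GST mu and GST theta genes at their position on chromosomes 3 and 10, with gene bodies as black bars and *Gstm1*, the 1 gene with an adjusted p under 0.05, in red. *Gstm1* and *Gstm4*, at the right end, have the largest values of the mu cluster, and *Gstt1* lies between *Gstt3* and *Gstt2* with a value of 0.08.

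The start regions of *Gstm1* and *Gstm4* are shown because these neighbours had the largest values of the cluster, and that of *Sult5a1* because it fell most with all livers included. Each is the 250 bases before the first listed start, from RefSeq (GRCm38.p6), at chr3:108017974-108018223, chr3:108044860-108045109 and chr8:123158281-123158530, all on the minus strand. The table held 43 of the 48 tested members and not *Gsta4*, *Gstt2*, *Sult2a7*, *Ugt1a6b* and *Ugt3a2*. Capitals mark matches, on either strand, to TGACNNNGC (core of the antioxidant response element), GCGTG (core of the xenobiotic response element) or AGGTCA (nuclear receptor half-site).
Gstm1: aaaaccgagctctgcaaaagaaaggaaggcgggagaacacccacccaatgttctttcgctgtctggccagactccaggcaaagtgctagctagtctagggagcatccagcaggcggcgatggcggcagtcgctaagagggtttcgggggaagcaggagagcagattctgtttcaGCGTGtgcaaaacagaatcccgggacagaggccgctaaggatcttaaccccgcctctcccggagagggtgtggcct
Gstm4: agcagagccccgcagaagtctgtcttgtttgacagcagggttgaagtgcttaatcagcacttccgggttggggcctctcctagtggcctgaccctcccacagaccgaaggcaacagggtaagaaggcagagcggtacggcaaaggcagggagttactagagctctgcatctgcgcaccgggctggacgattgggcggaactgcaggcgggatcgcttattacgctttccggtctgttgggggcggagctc
Sult5a1: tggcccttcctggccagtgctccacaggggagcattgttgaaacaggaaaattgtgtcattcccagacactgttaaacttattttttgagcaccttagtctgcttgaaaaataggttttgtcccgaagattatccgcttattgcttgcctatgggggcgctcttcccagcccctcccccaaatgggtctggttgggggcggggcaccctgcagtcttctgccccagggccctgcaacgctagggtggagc
The *Gstm1* window held 1 match to GCGTG and none to the other motifs, and the *Gstm4* and *Sult5a1* windows held 0 matches. Over 27025 genes with such a window, 10.1% held TGACNNNGC, 28.2% GCGTG and 13.8% AGGTCA, and among the 43 members the numbers were 3, 8 and 10. A match is a description and not a site, and no match says only that these letters are absent from the window.

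The GST theta genes act on small halogenated molecules and sulfate esters and lie together on chromosome 10. *Gstt3* had 18.3, 29.7 and 61.7 normalized CPM (lowest, median, highest) in WT livers and 36.4, 56.6 and 76.7 in LKO livers. WT3 lay among the LKO livers, and the other 5 WT livers lay below all of them. The log2 fold change was 0.76 ± 0.24 (SE, edgeR adjusted p = 0.215), and without WT3 it was 1.03 with an adjusted p of 0.0154, the lowest over the alternatives, which ran up to 0.378. *Gstt2* had 29.5, 44.3 and 59.1 normalized CPM in WT livers and 45.9, 74.0 and 84.7 in LKO livers. LKO1 and LKO2 lay among the WT livers and the other 4 LKO livers above them, with a log2 fold change of 0.65 ± 0.19 (SE, adjusted p = 0.180). *Gstt1*, which lies between them and had 132 to 237 normalized CPM over the WT livers, had a log2 fold change of 0.08 ± 0.11 (SE).

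*Gstp1*, the GST pi gene that is more abundant in male than in female mouse liver, had 88.8, 177 and 225 normalized CPM (lowest, median, highest) in WT livers and 96.2, 133 and 180 in LKO livers. WT3 was lowest of all 12 livers, and the groups overlapped (log2 fold change -0.33 ± 0.20 SE, edgeR adjusted p = 0.562). *Gstz1*, which is maleylacetoacetate isomerase of tyrosine breakdown, had 616 to 710 normalized CPM in WT livers and 561 to 730 in LKO livers, with a log2 fold change of -0.01 ± 0.07 (SE) whose sign was positive with upper-quartile scaling. *Gstp2* and *Gstp3* had log2 fold changes of 0.05 ± 0.51 and -0.08 ± 0.19 (SE). *Gstp1* and *Gstp2* share sequence (66.3% and 45.7% of their stretches in no other gene), so their counts are uncertain. The omega enzyme *Gsto1* had a log2 fold change of 0.01 ± 0.09 (SE). *Gstk1*, the kappa enzyme, had 70.3 to 89.9 normalized CPM in WT livers and 69.04 to 89.4 in LKO livers.

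*Mgst1*, the membrane-bound transferase with peroxidase activity, had 2920, 3175 and 3476 normalized CPM (lowest, median, highest) in WT livers and 3129, 3274 and 3383 in LKO livers. The LKO livers lay within the WT range, and the log2 fold change was 0.04 ± 0.06 (SE, edgeR adjusted p = 0.863). *Mgst3* had 3.99 to 8.19 normalized CPM in WT livers and 4.29 to 6.04 in LKO livers. *Mgst2* had at most 4 reads and was not tested.

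**Figure D3:**
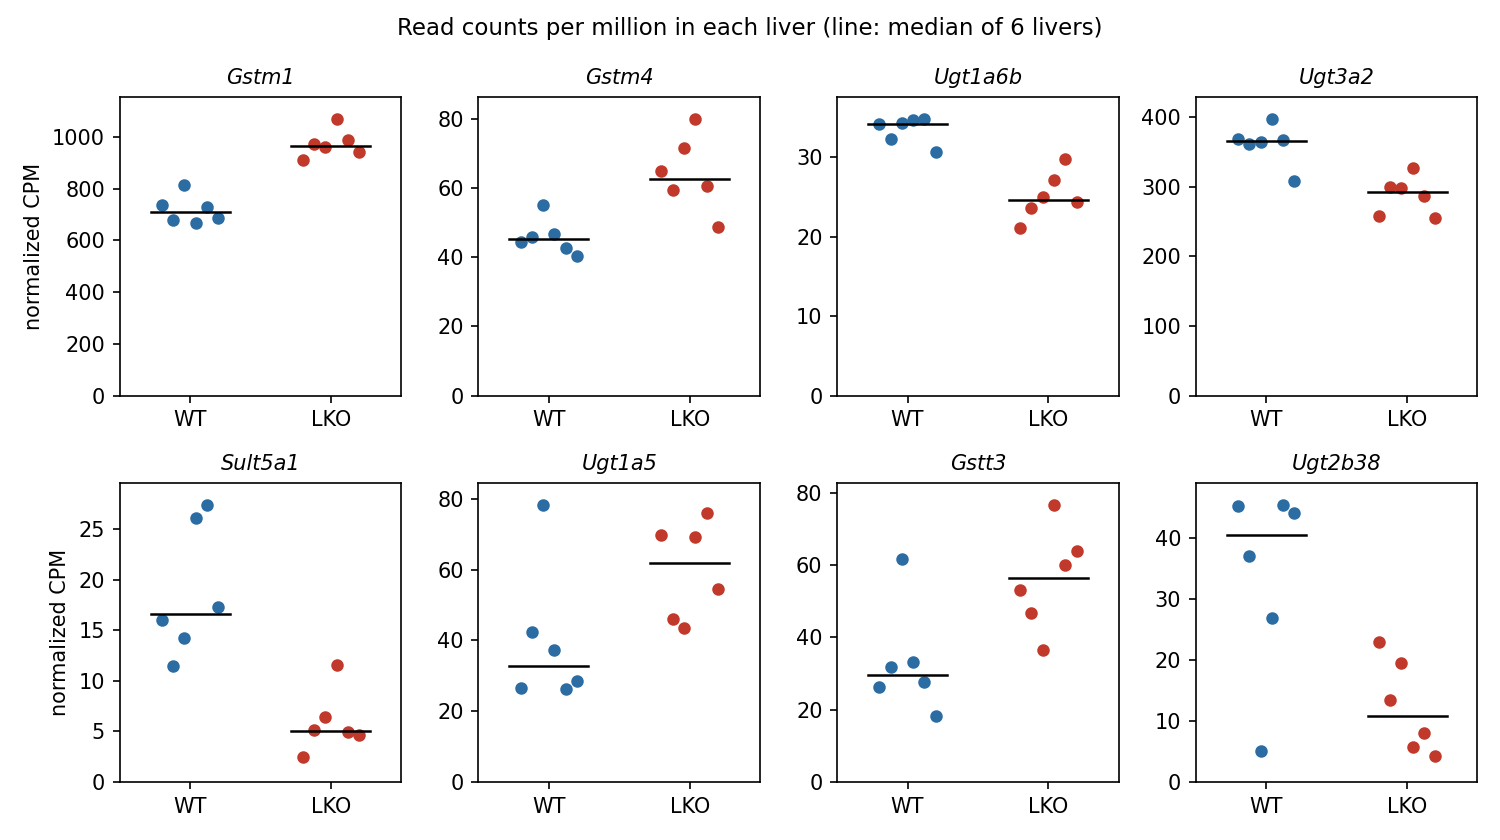
Normalized CPM of 8 enzymes in each of the 6 WT (blue) and 6 LKO (red) livers, with the median of a group as a line and each axis starting at 0. *Gstm1* and *Ugt1a6b* do not overlap between the groups, and for *Ugt1a5*, *Gstt3* and *Ugt2b38* 1 WT liver (WT3) lies among or above the LKO livers.

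The genes around the enzymes were taken as 13 lists with 110 genes, of which 100 were tested, and 3 rose and 1 fell in edgeR, beside 0.274% and 0.154% of all genes tested. At an unadjusted p under 0.05, 9 of the 100 were higher and 17 lower, beside 6.33% and 5.36% of all genes, and the median log2 fold change was -0.05. The numbers higher and lower were 4 and 1 in limma voom and 4 and 5 in DESeq2. None passed the threshold among the 3 genes of UDP-glucuronic acid supply, the 6 of PAPS supply and turnover, the 10 tested of glutathione synthesis and recycling, the 7 tested of the mercapturic acid pathway and the 8 tested of conjugate export and cleavage, with 0, 1, 0, 1 and 0 genes at an unadjusted p under 0.05. The median log2 fold changes of these 5 lists lay between -0.10 and 0.01. The lowest p in them belonged to *Ugp2*, which makes UDP-glucose (log2 fold change -0.21), *Bpnt1*, which degrades the used sulfate donor (-0.17), *Cbs* of cysteine synthesis (-0.15), *Nat8*, an N-acetyltransferase for cysteine conjugates (-0.48), and the exporter *Abcc6* (-0.17). DESeq2 and limma voom called none of these genes either.

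Of the 10 other conjugating enzymes, which methylate, acetylate or add an amino acid, 1 rose in edgeR and limma voom, and 2 were higher and 4 lower at an unadjusted p under 0.05. DESeq2 called *Inmt* higher and the thiopurine methyltransferase *Tpmt* lower (log2 fold change -0.33 ± 0.08 SE in edgeR). *Inmt*, a methyltransferase for indoles and thioethers, had 198, 232 and 359 normalized CPM (lowest, median, highest) in WT livers and 321, 408 and 503 in LKO livers. LKO livers exceeded every WT liver in 5 of 6 cases, and *Inmt* rose by 0.73 on the log2 scale (SE 0.139, edgeR adjusted p = 0.0319). Its call ended without WT1 (adjusted p = 0.0819), WT2 (0.0683), WT4 (0.0754), WT5 (0.0965), WT6 (0.0639), LKO3 (0.0778), LKO4 (0.0657) or LKO5 (0.0737), and over the alternatives the adjusted p ran from 0.00022 to 0.0965. Over the same alternatives its log2 fold change lay between 0.66 and 0.86. The median log2 fold change of that list was -0.09. Of 8 tested related transferases outside the symbol rule (median -0.19) none passed in edgeR or limma voom, with 1 higher and 1 lower at an unadjusted p under 0.05. The lowest p was that of *Tpst1*, a tyrosylprotein sulfotransferase (log2 fold change -0.37 ± 0.10 SE, edgeR adjusted p = 0.122), which DESeq2 called, with 5 of 6 LKO livers below every WT liver.

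Among the 13 sensors and regulators that are known to control these enzymes, among them *Ahr*, *Nfe2l2*, *Nr1i2* and *Nr1i3*, none passed the threshold in edgeR, limma voom or DESeq2 (list median -0.11), and 3 were lower at an unadjusted p under 0.05. The lowest p was that of *Rxra*, the shared partner of nuclear receptors (log2 fold change -0.20 ± 0.07 SE, adjusted p = 0.247). None of the 11 tested NRF2 target genes, the 9 CAR and PXR target genes or the 5 tested AHR target genes passed in these tools either, with 2, 1 and 2 at an unadjusted p under 0.05. Their list medians were 0.15, 0.05 and 0.04. The gene of lowest p was *Srxn1* (log2 fold change 0.80 ± 0.35 SE, adjusted p = 0.393, LKO1 far above the others at 175 normalized CPM), *Cyp2c29* (-0.27 ± 0.09) and *Cyp1a2* (-0.32 ± 0.10).

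Several conjugating enzymes differ between the sexes in mouse liver, so sex-biased genes were given as well, although all mice were male. Of 11 male-biased genes 2 rose and 1 fell in edgeR and limma voom, and 2 were higher and 5 lower at an unadjusted p under 0.05. DESeq2 called the same 2 higher and 3 lower, which were *Susd4*, *Mup20* and *Selenbp2*. *Cyp4a12a* (log2 fold change 0.59, SE 0.0950, edgeR adjusted p = 0.00999) and *Cyp4a12b* (0.75, SE 0.124, adjusted p = 0.0121) rose with all 6 LKO livers above all WT livers. *Susd4* fell by 1.00 (SE 0.186, adjusted p = 0.0270), with 5 of 6 LKO livers below every WT liver. It was called in 14 of 21 alternatives (adjusted p 8.7e-05 to 0.0764), and the call ended without WT1 (0.0558), WT4 (0.0708), WT5 (0.0764), WT6 (0.0586), LKO2 (0.0543) or LKO6 (0.0656), among others. Its log2 fold change lay between -1.10 and -0.87 over the 21 alternatives. The list median was -0.30 with 8 of 11 genes below 0. Of the 5 tested female-biased genes (median 0.66) none passed in edgeR, with 2 higher at an unadjusted p under 0.05. *Cyp17a1* had the lowest p (log2 fold change 1.10 ± 0.27 SE, adjusted p = 0.0921) and was called by limma voom and DESeq2. In WT3 the summed level of the male-biased genes was 3685 normalized CPM, the lowest WT value, against 5844 to 7313 in the other WT livers, and that of the female-biased genes was 72.5, the highest, against 19.0 to 35.7. The LKO livers had 3463 to 5285 for the male-biased and 51.3 to 92.1 for the female-biased genes, so WT3 lay within the LKO range in both. *Cyp17a1* made up 96.2% of the female-biased sum. The part of these genes in the enzyme values was not tested.

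The hepatocyte markers were all present, with *Alb* at 71.9% of a summed level of 99026 to 114919 normalized CPM in WT livers and 88969 to 100862 in LKO livers, as the label of total liver implies, and 5 of 6 LKO sums lay below every WT sum. None of these 7 passed in edgeR, limma voom or DESeq2, 3 were lower at an unadjusted p under 0.05, and *Serpina1a* had the lowest p (log2 fold change -0.22, adjusted p = 0.324). Pericentral markers (led by *Cyp2e1*) summed to 8345 to 11036 in WT livers and 7947 to 10733 in LKO livers, and periportal markers (led by *Pck1*) to 9406 to 12493 and 9172 to 11887, with 0 of 7 passing in each list in edgeR and 1 of each lower at an unadjusted p under 0.05. The genes of lowest p were *Axin2* (log2 fold change -0.38) and *Cyp2f2* (-0.41 ± 0.11 SE, adjusted p = 0.124, called by DESeq2). These zones matter here since many phase II genes are expressed unevenly along the lobule.

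Markers of other cells of the liver were counted in the same libraries. All 7 Kupffer cell markers had a positive log2 fold change (median 0.42), and 0 passed in edgeR, 6 were higher at an unadjusted p under 0.05 and DESeq2 called 3. This list was led by *Clec4f*, at 36.5 to 48.2 normalized CPM in WT livers and 47.8 to 73.8 in LKO livers (log2 fold change 0.39, adjusted p = 0.114 in edgeR, 5 of 6 LKO livers above every WT liver). Their summed level was 99.7, 121 and 129 normalized CPM (lowest, median, highest) in WT livers and 125, 156 and 215 in LKO livers. The 7 stellate cell markers (led by *Dcn*; lowest p *Ecm1*, log2 fold change 0.36) also all had positive values, summing to 182 to 280 in WT livers and 225 to 319 in LKO livers, with 0 passing and 2 higher at an unadjusted p under 0.05. Of 6 endothelial markers (led by *Stab2*; lowest p *Lyve1*, log2 fold change 0.77) 0 passed in edgeR and 1 in DESeq2, with sums of 131 to 171 and 142 to 174. Of 6 cholangiocyte markers (led by *Spp1*; lowest p *Sox9*, log2 fold change -0.62) 0 passed, with sums of 37.0 to 63.9 and 34.2 to 129, the last in LKO1, and *Cftr* was near 0 with at most 9 reads. Of 4 B cell markers 1 fell, *Ighm*, with 14.2 to 22.9 normalized CPM in WT livers and 4.38 to 6.32 in LKO livers (log2 fold change -1.78, adjusted p = 4.1e-06). It was 92.96% of a list sum of 14.8 to 23.3 in WT livers and 5.35 to 7.29 in LKO livers, while *Cd79a*, *Cd79b* and *Ms4a1* stayed below 1 CPM. These 3 had positive log2 fold changes of 0.45, 0.88 and 0.87, of which 2 were higher at an unadjusted p under 0.05, and the list median was 0.66. The part of these cells in the enzyme values was not tested, and in bulk tissue fewer cells of a type and less RNA per cell cannot be told apart.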

How the data were processed

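The authors deposited raw HTSeq 0.6.1 counts per Ensembl gene from KAPA mRNA HyperPrep libraries (HiSeq4000; Trimmomatic 0.36, HISAT2 2.1.0). The strand setting and overlap mode are not given in the sources used here. GENCODE M21 gave symbols, positions and lengths for 54165 identifiers. Reads carry no molecular identifiers, so depth describes counting error only. A gene was kept where over 2 reads were counted in 6 or more livers. Counts were TMM-scaled and tested in edgeR 4.0.16 (R 4.3.3, quasi-likelihood, genotype only, Benjamini-Hochberg over all genes tested; threshold adjusted p under 0.05), a procedure tested on simulated data. Alternatives were RLE and upper-quartile scaling, scaling without the 20 most abundant genes, no filter, at least 10 reads in every liver, filterByExpr, limma 3.58.1 voom, DESeq2 1.42.0, a replicate block and each liver left out. Members and lists were chosen with earlier results of these data known. The members described individually are those past the threshold or without overlap, the 10 of lowest p, the 3 most abundant per class, and the largest rise and fall among members with at least 10 reads in every liver. Of the other lists they are the genes past the threshold or without overlap and the gene of lowest p. Other genes were named after their values were seen. Some genes of the lists are not reported here.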

Additional observations from a re-analysis of the deposited data

Results flagged for a closer look

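In 3 of the 60 groups of 6 livers examined (23 named members and 7 class sums, each in WT and LKO), 1 liver stood far from the other 5, and chance alone does so in about 1 in 20 groups. All 3 were the liver WT3, as the highest WT value. For *Ugt1a5* WT3 had 78.3 normalized CPM against 26.1 to 42.3 in the other WT livers, a gap of 0.690 of the group's range. For *Gstt3* it had 61.7 against 18.3 to 33.3, a gap of 0.655 of the range. For *Mgst3* it had 8.19 against 3.99 to 5.06, a gap of 0.745 of the range. WT3 had 16556634 counted reads, within the range of the other libraries. The groups examined were not all separate, since the GST kappa sum is *Gstk1* alone. Tested members outside the 23 were not examined in this way. Among them is *Ugt2b37*, where LKO1 had 22.5 normalized CPM against 1.31 to 4.02 in the other LKO livers.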

How the results depend on the processing

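Of 481 values of the 23 members named by rule under the alternatives, 443 kept their direction and side of the threshold, 11 lost a call, 12 gained one and 15 changed sign. *Gstm1* was called in all 21 alternatives. The number of members higher in LKO livers (1 as reported) was 2 without a filter (58 members tested, 114 of 29280 genes called, 79 of them higher), 2 in DESeq2 (350 of 15122 genes called) and 1 to 4 with a liver left out. The number lower (2 as reported) was 0 to 3 with a liver left out. With WT3 and LKO1 both left out, an alternative chosen after seeing the data and not among the 21, 4 were higher and 2 lower, and 121 of all genes were called (75 as reported). There *Ugt1a6b* was not called (adjusted p = 0.0578 in edgeR), *Gstm4*, *Gstt3*, *Ugt1a5* and *Ugt2b38* were, and *Gstz1* (0.06), *Mgst3* (0.10) and *Sult1d1* (0.20) had a positive log2 fold change. With a liver left out the median log2 fold change of all members was 0.01 to 0.09. The class medians of SULT (-0.10 as reported) and MGST (-0.03) changed sign: SULT was 0.02 without WT replicate 3, 0.01 without LKO replicate 4 and 0.05 without both WT3 and LKO1, and MGST 0.07 without WT replicate 3, 0.05 without a filter and 0.09 without both. The other 5 class medians kept their sign in every alternative. Of the pathway list genes 5 were lower in DESeq2 (1 as reported). The cause was not tested.

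With the replicate number as a block, 3 members were higher and 3 lower, adding *Gstm4* (adjusted p = 0.0179 in edgeR), *Gstt2* (0.0118) and *Ugt3a2* (0.0446), 97 of all genes were called (75 as reported), and 0 pathway list genes were lower, with *Susd4* at an adjusted p of 0.0669. Livers share only a number: the correlations of same-numbered livers were 0.20, 0.28, -0.18, 0.29, 0.10 and 0.21, and 1 of 6 was best with its own number.

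Signs changed for *Gstz1* (0.0082 with upper-quartile scaling, 0.00815 without a filter, 0.00045 with at least 10 reads in every liver, and -0.043 without LKO replicate 4 to 0.032 without LKO replicate 1), *Gsta3* (-0.022 without LKO replicate 4 to 0.093 without WT replicate 3), *Mgst3* (-0.16 to 0.076 with a liver left out) and *Sult1d1* (-0.15 to 0.11 with a liver left out). The cause was not tested. Depth limits *Gsta1*, with 1 to 11 reads per liver.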
